A study of Homo sapiens with 2 samples.

Results

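TXNIP, HK1, PDK1 and ALDOC are 4 genes that act on the uptake and breakdown of glucose, and they were taken by symbol from the authors' deposited table of 2005 genes. They were chosen with their levels in the 2 libraries of that table already known, so their own levels and ratios are given as a description. RNA was sequenced from HES2 cells, a long-used human embryonic stem cell line, 3 passages after infection with a lentivirus carrying a Tfcp2l1 shRNA (a short hairpin RNA, the knockdown library) or a scramble control. Both cultures grew in basal medium containing 10% KSR plus Activin A (10 ng/ml) and FGF2 (10 ng/ml). Each group had a single library (1 per group), of about 22690000 (knockdown) and 23440000 (scramble) reads by inference from the deposited values, so no difference here has a replicate check. What share of the cells carried the hairpin is not given in the sources used here. Levels are in FPKM (fragments scaled by gene length and library size). Ratios are knockdown over scramble. Intervals are exact 95% intervals that cover counting error only.

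Glucose enters a cell through transporters and is trapped inside by hexokinases, which add a phosphate to it. Aldolases later split the six-carbon sugar, and the pyruvate made at the end of glycolysis is either turned into lactate or admitted to the mitochondrion by the pyruvate dehydrogenase complex. The kinases of that complex switch it off. TXNIP acts at the entry: it binds thioredoxin and lowers glucose uptake, and its own gene is known to be turned on by the glucose-sensing transcription factors MondoA and ChREBP. Primed human pluripotent stem cells are known for a strongly glycolytic metabolism.

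The sequences in front of 3 of these genes are shown because each holds a motif of a factor that is known to act on the gene. They are the 250 bases upstream of a RefSeq start site, build GRCh38.p14, written 5′ to 3′ on the strand of the gene. In TXNIP the capitals mark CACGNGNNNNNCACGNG, a pair of E-box-like sites spaced as in a carbohydrate response element. In PDK1 and ALDOC they mark ACGTG on either strand, the core of a hypoxia response element, read as CACGT on the other strand. The windows are chr1:145996580-145996829 (minus strand), chr2:172555840-172556089 (plus strand) and chr17:28576896-28577145 (minus strand).
TXNIP: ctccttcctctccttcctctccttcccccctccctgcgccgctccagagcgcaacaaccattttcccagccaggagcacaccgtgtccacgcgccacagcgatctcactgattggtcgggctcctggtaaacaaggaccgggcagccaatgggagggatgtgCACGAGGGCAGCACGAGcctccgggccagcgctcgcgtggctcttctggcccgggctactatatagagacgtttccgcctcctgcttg
PDK1: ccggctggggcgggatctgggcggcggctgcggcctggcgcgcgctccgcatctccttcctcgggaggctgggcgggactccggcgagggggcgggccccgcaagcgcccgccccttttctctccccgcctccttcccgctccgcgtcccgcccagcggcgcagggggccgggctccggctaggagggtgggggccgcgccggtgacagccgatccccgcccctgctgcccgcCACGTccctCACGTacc
ALDOC: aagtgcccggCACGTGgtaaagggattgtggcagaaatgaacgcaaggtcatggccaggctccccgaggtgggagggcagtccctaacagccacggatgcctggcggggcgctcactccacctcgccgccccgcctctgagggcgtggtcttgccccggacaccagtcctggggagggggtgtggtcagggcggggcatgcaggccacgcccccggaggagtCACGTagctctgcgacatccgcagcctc

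The spaced motif of TXNIP begins 88 bases before its start site. It was found in 16 of 35116 windows of the same length (0.0456%), searched on both strands. In PDK1 the core ACGTG was matched 17 and 8 bases before the start site. In ALDOC it was matched at 240, 239 and 28 bases. The pair at 240 and 239 bases is a single CACGTG, which holds the core on both strands. At least 1 ACGTG was present in 18.5% of all windows and at least 2 in 7.52%, while CACGTG was present in 6.34%. Each CACGTG counts as 2 ACGTG here, so every window with CACGTG is within the 7.52%. That share is thus not one of windows with 2 separate cores. The other start site of TXNIP held 1 ACGTG, and the other of PDK1 held none of these motifs. None was found in the 7 windows of HK1. These matches describe the letters of the windows and were not measured as binding.

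TFCP2L1, the targeted gene, had 0.33 FPKM in the knockdown library and 3.19 FPKM in the scramble library. Its ratio was 0.103 (interval 0.0792 to 0.132). Markers of other cell states moved with the groups. The list of 8 primitive streak and endoderm markers held T, MIXL1, EOMES, GSC, SOX17, FOXA2, CXCR4 and GATA6. Beside 54.1% of all listed genes, all 8 were higher in the knockdown library. Their summed level was 552 FPKM in the knockdown library and 4.73 FPKM in the scramble library. Of 8 markers of undifferentiated cells, 3 had a row (SOX2, UTF1 and PODXL). All 3 were lower, beside 45.9% of all listed genes. Summed levels of the 3 were 180 FPKM in the knockdown library and 491 FPKM in the scramble library. POU5F1 and NANOG had no row, and nothing is said here about a gene without one. Of 6 fibroblast markers, COL1A1 had a row, at 24.4 FPKM in the knockdown library and 110 FPKM in the scramble library. The part of these cell states in the results below was not tested. Fewer cells of a type and less RNA per cell cannot be told apart in such samples.

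Of the 4 genes, PDK1 was higher in the knockdown library, and TXNIP, HK1 and ALDOC were lower. Each differed by at least 2-fold at 1 FPKM or more, a rule met by 40.8% (higher) and 35.4% (lower) of the listed genes. The table holds only genes that differed by at least 2-fold, and the members were chosen from it, so nothing is read from this count. Higher and lower genes were 54.1% and 45.9% of its rows. The rows of the deposited table made up 5.86% (higher) and 4.98% (lower) of the 18489 genes that the authors tested.

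TXNIP, the inhibitor of glucose uptake, had 28.1 FPKM in the knockdown library and 223 FPKM in the scramble library. About 1825 knockdown and 14985 scramble reads lay behind these levels. The knockdown level was thus 7.95-fold below the scramble level (interval 7.57 to 8.35), which put TXNIP farthest of the 4 genes from equal levels. On the log2 scale, with 0.1 FPKM added to each level, the ratio was -2.99. It held place 124 by level among the 2005 genes in the knockdown library and place 9 in the scramble library. By the authors' deposited log2 ratio it was the 73rd lowest gene. In the authors' deposited table its p-value and false discovery rate are printed as 0, as are those of HK1 and PDK1.

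HK1, the hexokinase found in most tissues and bound to the outer mitochondrial membrane, had 51.0 FPKM in the knockdown library and 149 FPKM in the scramble library. About 4108 knockdown and 12383 scramble reads gave a 2.92-fold lower level after knockdown (interval 2.82 to 3.02) and a log2 ratio of -1.54. Although lower, it was the highest of the 4 genes in the knockdown library, at place 65 in the table by level, against place 14 in the scramble library.

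ALDOC, the aldolase isozyme best known from brain, had 17.6 FPKM in the knockdown library and 50.5 FPKM in the scramble library. Its reads numbered 639 and 1891, a pair of whole numbers that fitted both levels and the p-value. After knockdown it was 2.87-fold lower (interval 2.62 to 3.14), with a log2 ratio of -1.51. The authors' deposited table gives it a p-value of 8.64e-134 and a false discovery rate of 4.27e-132, which compare the reads of these 2 libraries and not the conditions. The folds of HK1 and ALDOC had overlapping intervals, and that of HK1 was 1.02 times that of ALDOC. The fold of TXNIP was 2.72 times that of HK1.

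PDK1, a kinase that phosphorylates pyruvate dehydrogenase and so keeps pyruvate out of the citric acid cycle, had 48.9 FPKM in the knockdown library and 11.8 FPKM in the scramble library. About 5972 knockdown and 1485 scramble reads gave a ratio of 4.15 (interval 3.92 to 4.40) and a log2 ratio of 2.05. It held place 70 by level in the knockdown library and place 215 in the scramble library. By the deposited log2 ratio it was the 411th highest gene, with all 8 streak and endoderm markers above it.

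**Figure D1:**
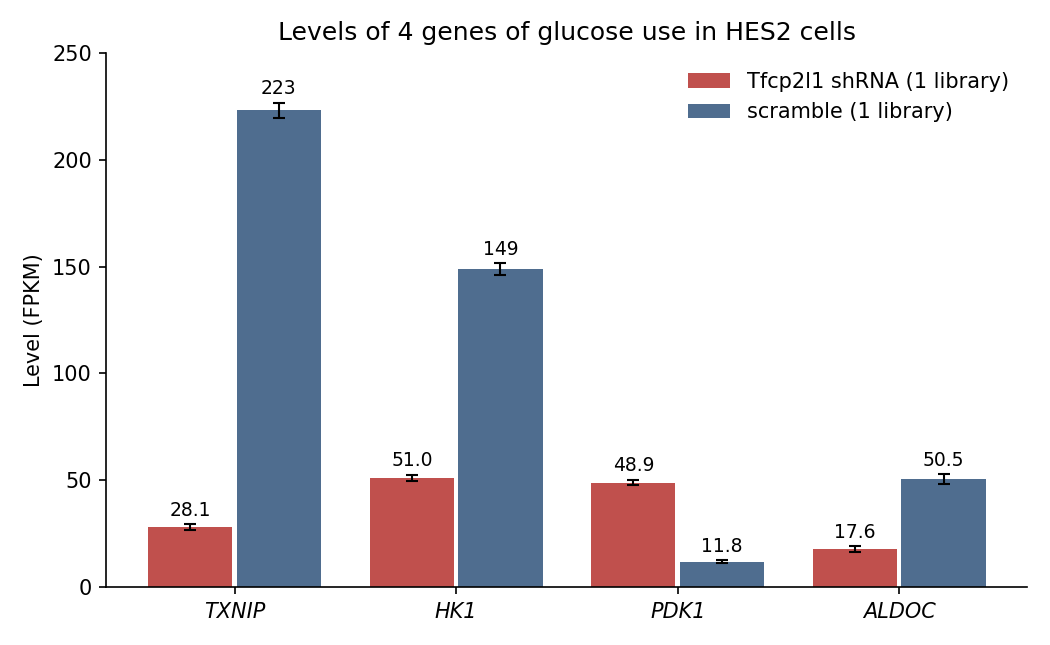
Level in FPKM (vertical axis) of the 4 genes in the knockdown library (red, left bar) and the scramble library (blue, right bar), 1 library each, with exact 95% Poisson intervals for counting error as error bars. PDK1 is the one gene with the higher bar in the knockdown library, at 48.9 against 11.8 FPKM, while TXNIP stands at 28.1 against 223 FPKM.

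The order of the 4 genes by level differed between the libraries. In the knockdown library it was HK1, PDK1, TXNIP and ALDOC, with PDK1 at 0.959 times the level of HK1, the closest neighbours in either order. Their counting intervals overlapped, at 47.7 to 50.1 FPKM for PDK1 and 49.4 to 52.6 FPKM for HK1. In the scramble library it was TXNIP, HK1, ALDOC and PDK1, with TXNIP at 1.5 times the level of HK1. PDK1 was at 1.74 times the level of TXNIP in the knockdown library and at 0.0527 times in the scramble library. HK1 kept nearly the same distance to ALDOC, at 2.89 times its level in the knockdown library and 2.95 times in the scramble library. The summed level of the 3 lower genes was 96.7 FPKM in the knockdown library and 422 FPKM in the scramble library. All 4 together took 0.980% of the reads of listed genes in the knockdown library and 3.31% in the scramble library. Listed genes were chosen for differing, so their total reads need not match between the libraries. These shares depend on that total as well. These level comparisons rest on the listed gene lengths, and for TXNIP, HK1 and PDK1 the reads follow from level and length alone.

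**Figure D2:**
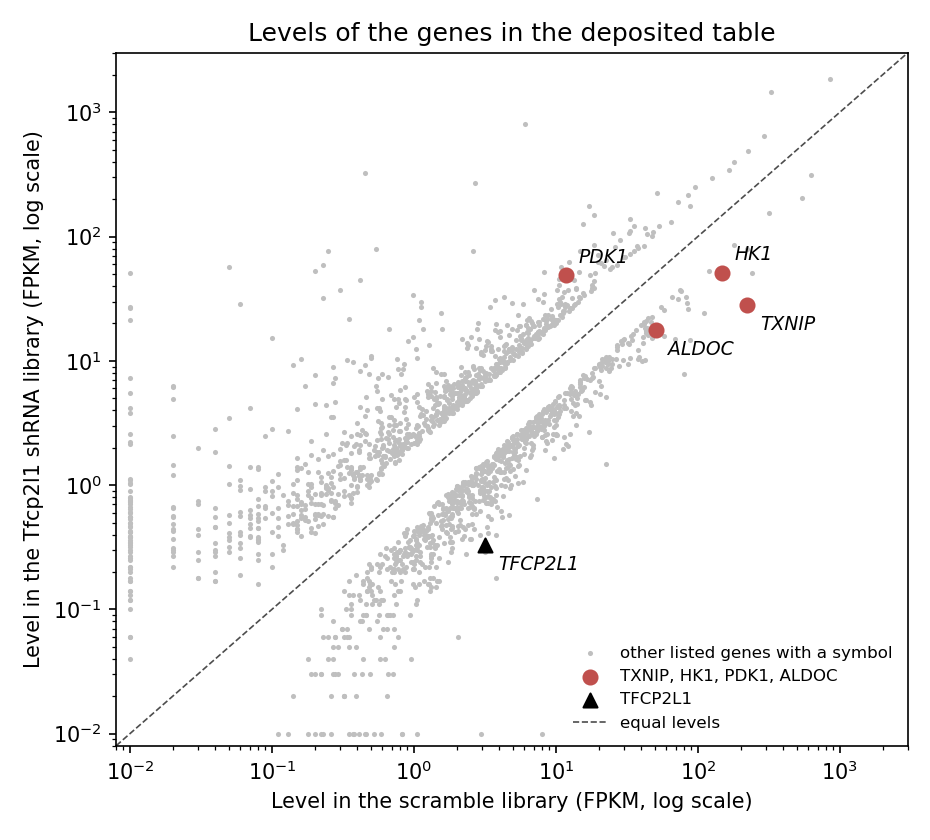
Level in the knockdown library (vertical, FPKM, log scale) against level in the scramble library (horizontal, FPKM, log scale) for the listed genes with a symbol (grey), the 4 genes (red) and TFCP2L1 (black triangle). The band around the line of equal levels is empty because the deposited table holds only genes that differed; TXNIP, at 28.1 and 223 FPKM, and HK1 lie among the highest levels of the scramble library.

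The genes with levels most like each member were found by distance on log2 levels over the 2 libraries. Nearest to TXNIP was PMAIP1, at 50.6 FPKM in the knockdown library and 239 FPKM in the scramble library, at a distance of 0.85. The next were COL1A1 and HK1. Nearest to HK1 was MTHFD2, an enzyme of mitochondrial folate metabolism, at 53.3 FPKM in the knockdown library and 119 FPKM in the scramble library (distance 0.33). PMAIP1 and SOX2 came after it. PDK1 was closest to H2AFY2 (distance 0.16), EPB41L3 and EXOC7. ALDOC was closest to GPC3 (distance 0.10), ATP1B2 and ACTN3. Few genes had levels near those of TXNIP, whose nearest gene was farther off than the third nearest of PDK1 (0.21) or ALDOC (0.23).

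The other genes of glucose use came from 12 lists with 214 genes, the 4 included, of which 16 had a row. That is 7.48% of the lists, beside 10.8% of all genes tested. How many list genes were tested is not known, so this share and those of the lists below have another base than the 10.8%. Of the 16, 4 were higher and 11 lower by at least 2-fold at 1 FPKM or more, and PPARGC1A was lower at a level under 1 FPKM. By direction alone 12 of the 16 were lower, beside 45.9% of all listed genes. The median deposited log2 ratio of the 16 was -1.35, beside 1.07 for all listed genes. No row has a log2 ratio under 1 in size, so the side of such a median follows from which direction holds more rows, and the medians do not compare sizes. Leaving out the 4 members, 12 genes remained, 3 higher and 9 lower, with a median of -1.27. No row was found for the lists of lactate and pyruvate exchange (14 genes), the citric acid cycle (22 genes), the pentose phosphate pathway (13 genes) and hexosamine, fructose, galactose and polyol metabolism (18 genes).

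At the entry of glucose, 1 of 16 transporter genes had a row. SLC2A6, a glucose transporter of lysosomal membranes, had 6.32 FPKM in the knockdown library and 2.14 FPKM in the scramble library, a ratio of 2.98 (interval 2.42 to 3.69).

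ARRDC4, like TXNIP an alpha-arrestin and a known MondoA target, was the other gene with a row among 17 genes of the alpha-arrestins and the thioredoxin system. It had 3.58 FPKM in the knockdown library and 14.5 FPKM in the scramble library, on 326 and 1364 reads. After knockdown it was 4.05-fold lower (interval 3.59 to 4.59), nearer to equal levels than TXNIP. Its RefSeq window held 1 CACGTG and not the spaced motif printed above for TXNIP. The genes of the glucose-sensing factors themselves (MLXIP, MLXIPL and MLX) had no row.

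Of 27 glycolysis genes, PGAM2, the muscle form of phosphoglycerate mutase, had a row beside ALDOC. It had 1.93 FPKM in the knockdown library and 8.43 FPKM in the scramble library (ratio 0.230, interval 0.155 to 0.331). PGAM2 is uncertain, since 93.5% of its 31-base words also occur, on either strand, in transcripts of the gene DBNL. DBNL has a row of its own with the opposite direction, at 28.2 FPKM in the knockdown library and 11.96 FPKM in the scramble library (deposited log2 ratio 1.24). The same share was 0% for TXNIP and HK1, 3.28% for PDK1 and 13.2% for ALDOC, most of the last with the locus AC005726.4. Each share was taken over the longest transcript, which for PDK1 has 14193 bases against a listed gene length of 5449 bases. The more widely expressed isozymes ALDOA and PGAM1 had no row.

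Of 13 genes of the pyruvate dehydrogenase complex and its regulators, PDK4 and PDP2 had rows beside PDK1. The 3 are 23.1% of the list, beside 10.8% of all genes tested, and PDK1 is among them by choice. PDK4, a kinase of the complex like PDK1, was lower, at 0.40 FPKM in the knockdown library and 1.01 FPKM in the scramble library (ratio 0.396, interval 0.257 to 0.598). PDP2, a phosphatase that reverses the action of these kinases, had 4.03 FPKM in the knockdown library and 8.48 FPKM in the scramble library (ratio 0.474, interval 0.431 to 0.521). Between PDK1 and PDK4, the kinase with the higher level in both libraries was thus the one that was higher in the knockdown library. PDP2 was lower there. The other regulators PDK2, PDK3, PDP1 and PDPR had no row, so their levels are not known here. No subunit of the complex had a row.

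Around the ends of the pathway, 2 of 8 genes of pyruvate carboxylation and gluconeogenesis had a row (25%, beside 10.8% of all genes tested). PCK2, the mitochondrial enzyme that makes phosphoenolpyruvate, had 22.5 FPKM in the knockdown library and 47.8 FPKM in the scramble library (ratio 0.472). FBP1, an enzyme of gluconeogenesis, had 2.03 FPKM in the knockdown library and 0.86 FPKM in the scramble library, on 70 and 31 reads (ratio 2.33, interval 1.51 to 3.68). PPP1R3B, which targets a phosphatase to glycogen, had 28.6 FPKM in the knockdown library and 10.3 FPKM in the scramble library (ratio 2.78, interval 2.61 to 2.96). It was the 1 gene with a row among 30 glycogen genes.

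Of 26 glucose-sensing and insulin-responsive regulators, 4 had a row (15.4%, beside 10.8% of all genes tested). All 4 were lower, beside 45.9% of all listed genes, and 3 of them by at least 2-fold at 1 FPKM or more. The insulin receptor substrate IRS2 had 3.97 FPKM in the knockdown library and 10.7 FPKM in the scramble library (ratio 0.372), and its relative IRS4 at 2.62 and 6.76 FPKM (ratio 0.388). MYC, a transcription factor that turns on many glycolysis genes, had 20.4 FPKM in the knockdown library and 47.2 FPKM in the scramble library (ratio 0.431). PPARGC1A, a coactivator of mitochondrial genes, had 0.16 FPKM in the knockdown library and 0.49 FPKM in the scramble library, on 23 and 72 reads.

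PDK1 and ALDOC are both known as targets of the hypoxia-inducible factor HIF1, and they differed in opposite directions. Of 34 further genes of the HIF pathway and hypoxia response, 7 had a row (20.6%, beside 10.8% of all genes tested). Of these, 3 were higher and 4 lower in the knockdown library, beside 54.1% and 45.9% of all listed genes. The median deposited log2 ratio of the 7 was -1.52, beside 1.07 for all listed genes, with the same limit as above. Higher were ADM (11.9 FPKM in the knockdown library and 3.47 FPKM in the scramble library), CA12 (2.36 and 0.66 FPKM) and the HIF partner gene ARNT2 (4.68 and 2.0 FPKM). Lower were EGLN3, a HIF prolyl hydroxylase (3.12 FPKM in the knockdown library and 8.96 FPKM in the scramble library), ANGPTL4 (1.05 and 5.84 FPKM), STC2 (8.23 and 23.6 FPKM) and CA9 (0.32 and 1.06 FPKM). CA9 is uncertain, with 11 and 37 reads and 35.2% of its 31-base words also in the gene ARHGEF39, on either strand. HIF1A and VEGFA had no row. The list thus held genes of both directions, as did the pair PDK1 and ALDOC.

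**Figure D3:**
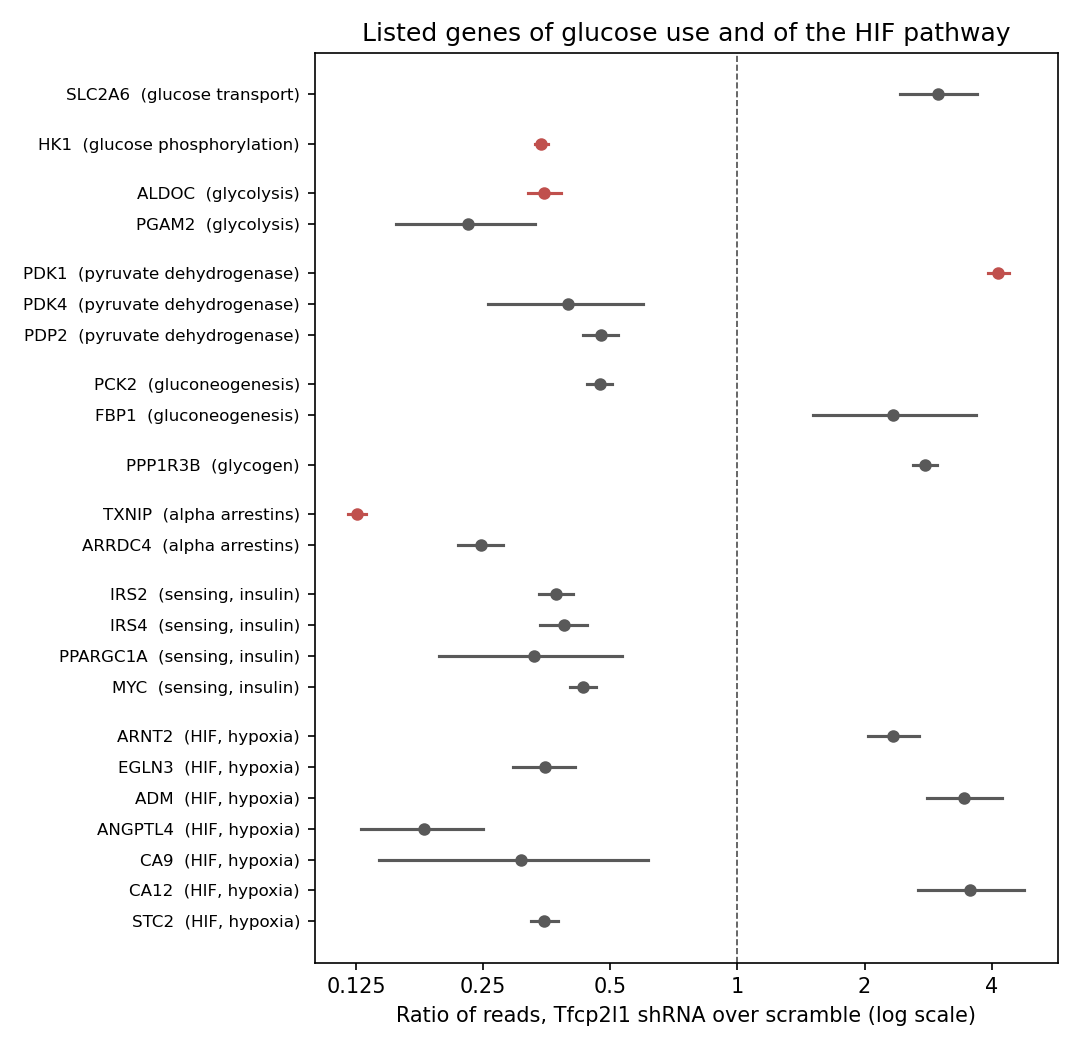
Ratio of reads, knockdown over scramble (horizontal, log scale), for each gene with a row on the glucose lists and the HIF list, with its list in brackets. Points are ratios, lines exact 95% counting intervals, red marks the 4 genes and the dashed line equal levels; TXNIP has the lowest ratio (0.126) and PDK1 the highest (4.15).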

How the data were processed

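Total RNA (1 library per group) was sequenced with the BGISEQ-500 platform, per the labels. The submitters' processing notes name hg19 and Bowtie 0.12.2. How reads were quantified, filtered and tested, and with which strand setting, is not given in the sources used here. The authors' deposited levels were read as FPKM, since they scale with inferred reads per kilobase. The values do not show whether they are RPKM or FPKM. The log2 ratio deposited by the authors is log2 of the knockdown over the scramble level, and the deposited p-values and false discovery rates are the authors'. The deposited gene length is in bases.

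The count of genes tested (18489) makes the ratio of p-value to false discovery rate give whole ranks. Reads were inferred as whole pairs that fit both levels and the p-value of the Poisson test of Audic and Claverie, within 0.0002 on the natural log. A pair was found for 79.3% of 1926 genes with a p-value above 0. For the other genes, TXNIP, HK1 and PDK1 among them, reads came from level, length and depth, so their intervals are approximate. In a simulated table of 2004 genes of this comparison, every gene with a p-value above 0 got a pair and 100% of pairs were those drawn, so the simulation does not cover the genes left without a pair here or the 18 with more than 1 pair. In it, 97% of 200 intervals held the true ratio. Those intervals were built from the reads drawn and not from inferred reads. They therefore do not check the intervals of genes whose reads came from level, length and depth. Intervals are Clopper-Pearson and cover only counting error, since 1 library per group shows no spread between cultures. PCR copies counted as separate reads would make them too narrow even for that. No test of the conditions was possible with 1 library per group.

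Log2 ratios use a pseudocount of 0.1 FPKM, which understates those of low genes. The named genes are the 4 members, TFCP2L1, list genes with a row, and the 3 nearest genes of each member. After the values were seen, 1 gene was left out of the lists and is not reported here. The members, lists and motifs were chosen with earlier results of these data known. Sequence sharing used GENCODE release 29 transcripts and counted words on either strand. Overlap with a gene on the opposite strand is thus included, which matters only if reads were counted without regard to strand. Promoters and start sites are RefSeq's and matched all 4 members, and no coordinates are in the deposited table. Python 3.11.15 and scipy 1.17.1 were used.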

Additional observations from a re-analysis of the deposited data

How the results depend on the processing

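The directions of the 4 genes were the same with a pseudocount of 1 FPKM, with none, with inferred reads and with the authors' deposited log2 ratio. With a pseudocount of 1 FPKM the log2 ratio of PDK1 was 1.97, just outside its counting interval. The other ratios under these settings lay within the intervals. Rescaling the levels to a median log2 ratio of 0 over the listed genes, a shift of 1.01, gave -4.0 for TXNIP, -2.56 for HK1, 1.03 for PDK1 and -2.53 for ALDOC. That median comes from genes chosen for differing. The counts of higher and lower genes in the table, 819 and 710, were 457 and 301 with a minimum of 5 FPKM and 240 and 107 at 4-fold, and 364 were lower with a pseudocount of 1 FPKM (546 higher). On the glucose lists, 1 gene (PDK1) was higher and 2 (TXNIP and PGAM2) were lower at 4-fold with the pseudocount. No paired analysis was possible because each group had 1 library, so no replicate could be left out either. Depth limits PDK4, PPARGC1A, FBP1 and CA9, with 11 to 86 reads per library. Few reads in 1 library also limit genes such as APOA2 (10 in scramble), CA12 (64 in scramble), PGAM2 (36 in knockdown) and ANGPTL4 (44 in knockdown).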

Other observations

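The annotation columns of the deposited table gave a different view of glucose genes, chosen after the values were seen. A term naming glucose, glycolysis, pyruvate or hexose was attached to 38 rows, among them all 4 members, with 16 higher and 22 lower in the knockdown library, beside 54.1% and 45.9% of all listed genes. Of those outside the lists, 9 reached 10 FPKM in at least 1 library, and 4 of the 9 were higher in the knockdown library. APOA2, an apolipoprotein of high-density lipoprotein, had 10.5 FPKM in the knockdown library and 1.05 FPKM in the scramble library. These levels rest on 97 knockdown and 10 scramble reads (ratio 10.0, interval 5.22 to 21.6). The secreted growth factor TGFB1 had 52.1 FPKM in the knockdown library and 14.6 FPKM in the scramble library. FGF19, a hormone-like growth factor that acts on liver metabolism, had 19.2 FPKM in the knockdown library and 5.55 FPKM in the scramble library, and GAS6, a ligand of receptor tyrosine kinases, had 12.7 and 6.19 FPKM.

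The other 5 of the 9 were lower in the knockdown library. CTGF, a secreted matrix-associated protein, differed most, at 7.83 FPKM in the knockdown library and 80.5 FPKM in the scramble library (deposited log2 ratio -3.36). PMAIP1, a BCL2-family protein that promotes apoptosis, had 50.6 FPKM in the knockdown library and 239 FPKM in the scramble library. FGFR4, the main receptor of FGF19 in liver, had 19.9 FPKM in the knockdown library and 42.0 FPKM in the scramble library. The nuclear receptor gene PPARD had 5.49 FPKM in the knockdown library and 12.9 FPKM in the scramble library, and the stress-induced transcription factor gene ATF3 had 6.0 and 12.8 FPKM.

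The row of PDK1 carries 56 GO terms, against 14 to 24 for the other 3 genes. Among them is 3-phosphoinositide-dependent protein kinase activity, which is the activity of PDPK1, a different kinase whose protein is also called PDK1. The gene ID 5163 and the description of the row name the pyruvate dehydrogenase kinase, so the levels above are those of that gene.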
